A study of Mus musculus with 18 samples.

Results

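Intercalated cells are the acid-base cells of the connecting tubule and collecting duct of the kidney. In kidney RNA from 18 mice, 10 genes expressed in them were followed. The 10 genes were a fixed list of 78239 genes counted: *Atp6v1b1*, *Atp6v0d2*, *Atp6v1g3*, *Slc4a1*, *Slc26a4*, *Slc4a9*, *Foxi1*, *Rhbg*, *Rhcg*, and *Aqp6*. They were chosen by name as genes of these cells and lie on mouse chromosomes 6, 4, 1, 11, 12, 18, 11, 3, 7, and 15 in that order. All mice were outbred CD-1 offspring labelled WT, aged 6 wk. Dams of the low protein (LP) groups ate a diet with 8% protein through pregnancy and nursing, and dams of the normal protein (NP) groups a diet with 18% protein. Every pup was weaned at 3 wk onto the 18% diet. The groups held 5 males each of LP and NP, 5 LP females, and 3 NP females, with 1 library per mouse from a piece of the left kidney. All mice had received cationic ferritin, an imaging agent that binds in glomeruli, and kidneys were taken 90 min after the last injection in males and 24 h after it in females. Sex and that interval therefore cannot be told apart in any male-female comparison here. The adult mice came from fewer litters than mice, and the labels tie no mouse to a litter, so p-values measure only the spread between these mice, some of which share a litter.

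Intercalated cells move protons and bicarbonate with a proton pump, the V-ATPase, and with chloride-bicarbonate exchangers. Type A cells secrete acid: the pump sits at the lumen and the exchanger AE1, encoded by *Slc4a1*, returns bicarbonate to the blood. Type B cells secrete bicarbonate through pendrin, encoded by *Slc26a4*, and carry the exchanger AE4, encoded by *Slc4a9*, on the blood side. *Foxi1* is the forkhead transcription factor that these cells need in order to form. *Rhbg* and *Rhcg* are ammonia transporters, and *Aqp6* is a channel of intracellular vesicles in type A cells. *Atp6v1b1*, *Atp6v0d2*, and *Atp6v1g3* encode forms of pump subunits that are restricted to such cells, the B1, d2, and G3 subunits in that order.

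Because *Foxi1* is a forkhead factor, the 250 bases before the canonical transcript start of each gene (GENCODE vM39) were read from GRCm39 and searched on both strands for the forkhead cores GTAAACA and ATAAACA. They were also searched for CCAGNNNNNNCCAG, a paired core of the CP2 family to which *Tfcp2l1*, another collecting duct factor, belongs. The first window below is shown because *Atp6v1b1* holds a match and had the smallest adjusted p of the 10 genes between the sexes. The second is shown because *Slc26a4*, the gene with the smallest difference between the sexes, holds none. Capitals mark the match, which lies on the minus strand at bases -66 to -60 from the start. The windows are chr6:83719717-83719966 on the plus strand and chr12:31609928-31610177 on the minus strand, each printed 5′ to 3′ along its gene.
*Atp6v1b1*: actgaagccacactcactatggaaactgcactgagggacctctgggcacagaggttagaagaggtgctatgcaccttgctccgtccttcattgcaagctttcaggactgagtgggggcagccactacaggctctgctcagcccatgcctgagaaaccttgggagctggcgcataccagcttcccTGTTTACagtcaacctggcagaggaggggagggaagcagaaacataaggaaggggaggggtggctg
*Slc26a4*: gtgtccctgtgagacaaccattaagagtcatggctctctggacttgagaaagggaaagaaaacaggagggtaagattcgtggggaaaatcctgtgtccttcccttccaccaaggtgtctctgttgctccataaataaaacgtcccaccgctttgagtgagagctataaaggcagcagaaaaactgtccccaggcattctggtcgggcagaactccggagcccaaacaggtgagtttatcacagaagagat
GTAAACA was found in 2 of the 10 windows, those of *Atp6v1b1* and *Slc4a9*, and in 2.72% of the windows of 21738 protein-coding genes. ATAAACA was in 0 of the 10 windows and in 4.01% of all windows. Either forkhead core was in 2 of the 10 and in 6.57% of all windows. The paired CCAG core was in 1 of the 10, that of *Slc4a9*, and in 2.69% of all windows. No match overlapped another. *Rhcg*, *Atp6v0d2*, *Atp6v1g3*, *Slc4a1*, *Foxi1*, and *Aqp6*, which were also lower in males as given below, held no match. A match is only a match of letters, and its absence says only that these letters are not in this window.

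Gene counts summed to 14050486 in the shallowest library and to 23562411 in the deepest. All 8 proximal tubule, 5 podocyte, and 6 thick ascending limb markers reached 10 counts in every library, and 0 of 6 fat genes did. Fat still varied widely between libraries. The summed normalized counts of the 6 fat genes ran from 5.07 to 1575 in LP males and from 0 to 867 in NP males. In females they ran from 1.64 to 4257 with LP and from 65.9 to 3108 with NP. LP females 1 and 2 and NP female 3 stood apart from the rest of the series by genes outside the list. Their normalized counts of *Ifit1*, an interferon-induced gene, were 69.6 to 91.9, against 2667 to 11533 in the other 5 females. Those of *Fkbp5*, a glucocorticoid-induced gene, were 354 to 728, against 4146 to 8478. The mean log2 level of the 10 intercalated cell genes was 9.04 to 9.94 in these 3 libraries and 9.26 to 9.79 in the other 5 females. Counts of calls that use females are therefore also given without these 3 libraries. The library was non-directional, and *Atp6v1b1*, *Atp6v0d2*, *Slc26a4*, *Slc4a9*, *Rhcg*, and *Aqp6* overlap a noncoding RNA on the opposite strand, and reads in exons that overlapping genes share are counted for neither gene, so such reads can be missing from their counts. *Rhbg* overlaps *Gm38392*, a protein-coding gene on the same strand, and its count is uncertain in the same way.

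Per kb of exon, the levels of the 10 genes spanned a wide range and had a similar order in the groups. In NP males, *Atp6v1g3* stood at 333 ± 62.9 normalized counts per kb (mean ± SD, n = 5), *Aqp6* at 299 ± 101, *Rhcg* at 252 ± 43.5, and *Atp6v1b1* at 222 ± 15.7. Those neighbours did not differ beyond their spread. *Slc26a4* and *Foxi1* followed at 182 ± 16.2 and 174 ± 26.7 per kb and also overlapped each other. Below them came *Atp6v0d2* at 109 ± 10.4 per kb, *Slc4a9* at 97.1 ± 18.6, and the type A exchanger *Slc4a1* at 66.0 ± 22.9. The spread of each overlapped that of its neighbour in this order. *Rhbg* was the lowest by far, at 9.64 ± 7.61 per kb. In NP females (n = 3), *Atp6v1g3* was again among the highest, at 626 ± 159 per kb, with *Aqp6* at 565 ± 215 and *Rhcg* at 516 ± 162, and *Rhbg* was the lowest at 30.6 ± 20.2. For the B and d subunits, the forms used in all cells had higher levels per kb than the restricted forms. The B2 subunit gene *Atp6v1b2* stood at 1205 ± 128 per kb in NP males, against 222 ± 15.7 for the B1 gene *Atp6v1b1*. For the d subunits, *Atp6v0d1* stood at 573 ± 50.5 per kb and *Atp6v0d2* at 109 ± 10.4. The G subunits were closer, with *Atp6v1g1* at 416 ± 48.9 per kb in NP males and *Atp6v1g3* at 333 ± 62.9, whose spreads overlapped. In females the order of their means was the other way, with *Atp6v1g1* at 442 ± 70.7 per kb in LP and 421 ± 58.8 in NP and *Atp6v1g3* at 507 ± 111 in LP and 626 ± 159 in NP.

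**Figure D1:**
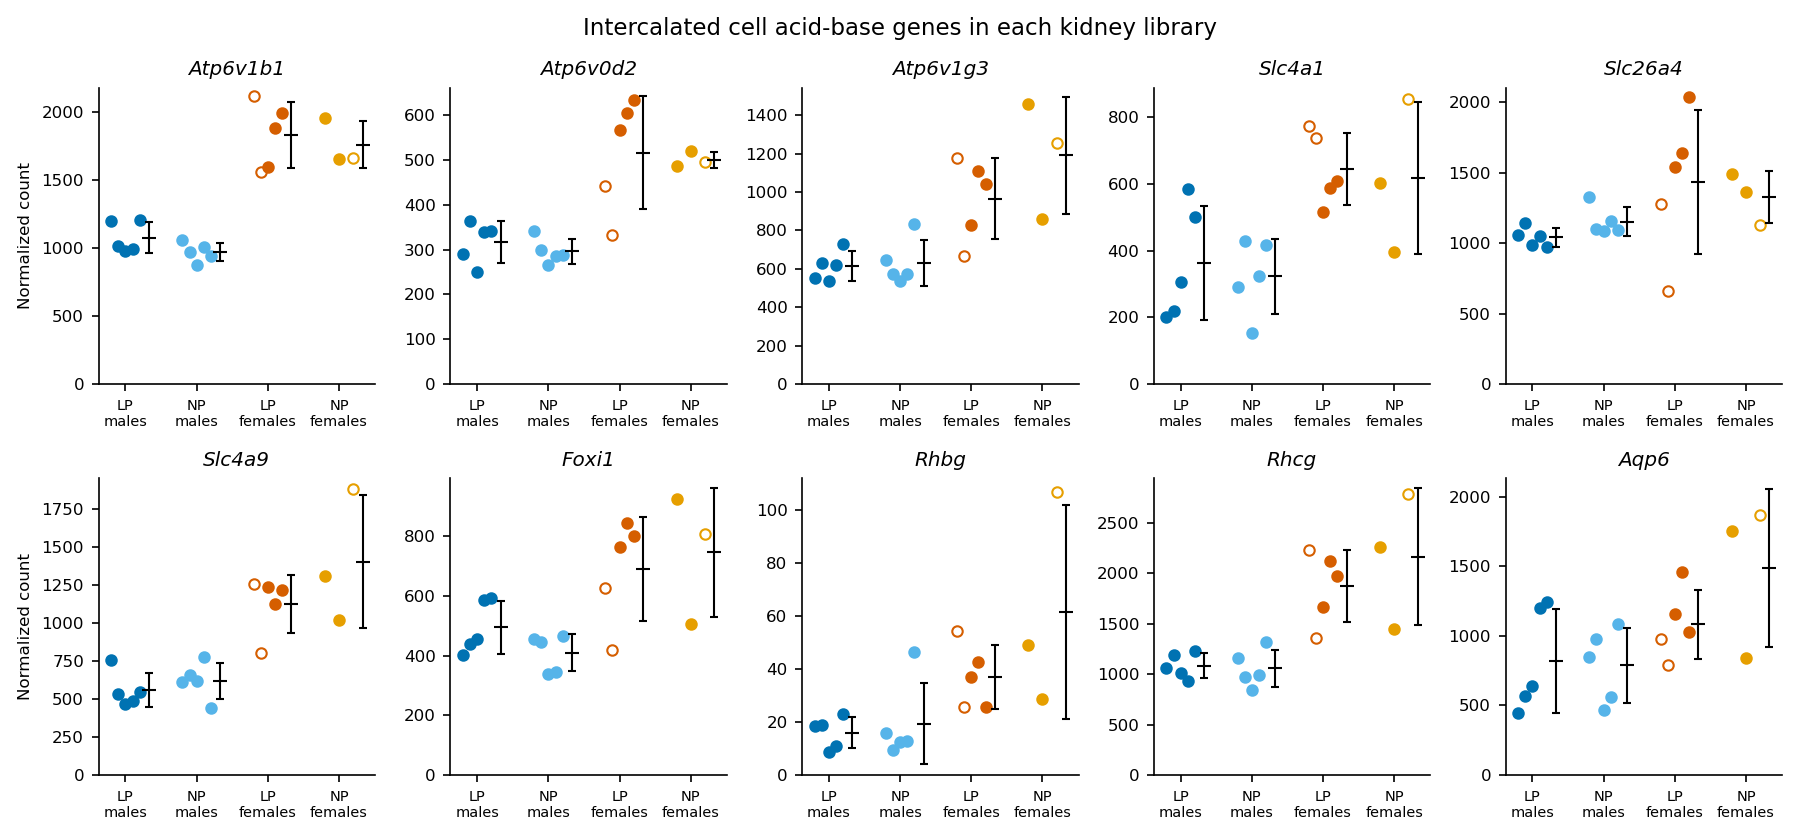
Each panel plots 1 gene, with its normalized count on a linear axis from 0 and 1 point per mouse in the 4 groups; black marks give mean ± SD, and open points are LP females 1 and 2 and NP female 3. LP and NP points overlap in every panel, whereas the points of *Atp6v1b1*, *Slc4a9*, and *Rhcg* are lower in all 10 males than in any of the 8 females.

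In males, none of the intercalated cell genes was called between diets. The acid exchanger *Slc4a1* had normalized counts of 201, 220.4, 308, 500.2 and 586 in LP males and 153, 291, 323, 417 and 429 in NP males. The pendrin gene *Slc26a4* had 971, 986, 1047, 1059 and 1144 in LP males and 1084, 1089, 1096, 1154 and 1326 in NP males. *Foxi1* had 401, 439.6, 455, 587 and 594 in LP males and 338, 346, 445, 457 and 467 in NP males. The diet groups overlapped for each of these genes and for all 10 genes of the list, while the groups did not overlap for 0.713% of the 13181 genes tested. By edgeR's quasi-likelihood test with Benjamini-Hochberg adjustment, 0 of the 9 genes that could be tested were differentially expressed genes (DEGs), defined by an adjusted p under 0.05 and a change of at least 1.5-fold. DEGs made up 0.0379% of all genes tested. An unadjusted p under 0.05 was reached by 0 of the 9 genes, against 3.84% of all genes with edgeR. By limma-voom it was reached by 1 of the 9, beside 883 of 13181 genes. DESeq2's Wald test and limma-voom also called 0. *Rhbg* was the gene left out, because LP male 3 and NP male 2 each had 9 counts.

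Among the 9 genes tested in males, the diet estimate was most precise for *Slc26a4* and *Atp6v1b1*. *Foxi1* had the largest estimate in males, a log2 fold change of 0.29 (LP minus NP, SE 0.15, 95% confidence interval -0.03 to 0.60, edgeR adjusted p = 1.00). The exact two-sided permutation p for *Foxi1* was 0.151, where 5 against 5 mice can give no p under 0.00794. For *Slc26a4* the log2 fold change was -0.13 (95% interval -0.31 to 0.05), an interval that excludes a change of 1.5-fold. *Atp6v1b1*, the B1 pump subunit, had a log2 fold change of 0.16 (95% interval -0.04 to 0.37). The intervals of *Slc4a1* and *Aqp6* were the widest of the 9, at -0.53 to 0.91 and -0.60 to 0.75, and a 1.5-fold increase lies inside both. Without LP male 4, the estimate for *Slc4a1* moved from 0.19 to -0.063, and that for *Aqp6* from 0.07 to -0.11. Over the 9 genes the median log2 fold change was 0.07, beside -0.0039 over all genes tested.

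In females, the intercalated cell genes were not called between diets either, mostly with wider intervals than in males. *Aqp6*, the vesicle channel, had normalized counts of 793, 979, 1031, 1154 and 1458 in LP females and 837, 1755 and 1866 in NP females. *Slc4a9*, the AE4 gene, had 800.4, 1129, 1216, 1238 and 1258 in LP females and 1019.6, 1312 and 1883 in NP females. *Rhbg* had 25.4, 25.5, 36.9, 42.5 and 54.3 in LP females and 28.7, 48.9 and 107 in NP females. In each of these genes at least 1 NP value lay within the range of the LP values, and the highest value of all belonged to NP female 3, one of the libraries that stood apart. All 10 genes overlapped between the diets, while 3.07% of 13510 genes did not. DEGs numbered 0 of the 10 genes by edgeR, DESeq2's Wald test, and limma-voom, beside 0.0% of all genes by edgeR. An unadjusted p under 0.05 was reached by 0 of the 10 genes and by 4.17% of all genes with edgeR. By limma-voom it was reached by 2 of the 10, beside 2437 of 13510 genes. The lowest log2 fold change was that of *Rhbg* at -0.74 (SE 0.43, 95% interval -1.71 to 0.23, edgeR adjusted p = 0.886), followed by *Aqp6* at -0.47 (interval -1.07 to 0.13) and *Slc4a9* at -0.33 (interval -0.82 to 0.16). Exact permutation p-values were 0.286, 0.286, and 0.393 for these 3 genes, where 5 against 3 mice can give no p under 0.0357. *Slc26a4* had the highest log2 fold change, 0.09 (interval -0.60 to 0.77). Its LP values ran from 661 to 2034, a 3.08-fold range whose lowest value was LP female 2. Without the 3 libraries that stood apart, the log2 fold changes were -0.18 for *Rhbg*, -0.12 for *Aqp6*, 0.011 for *Slc4a9*, and 0.26 for *Slc26a4*, and 0 genes were called.

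**Figure D2:**
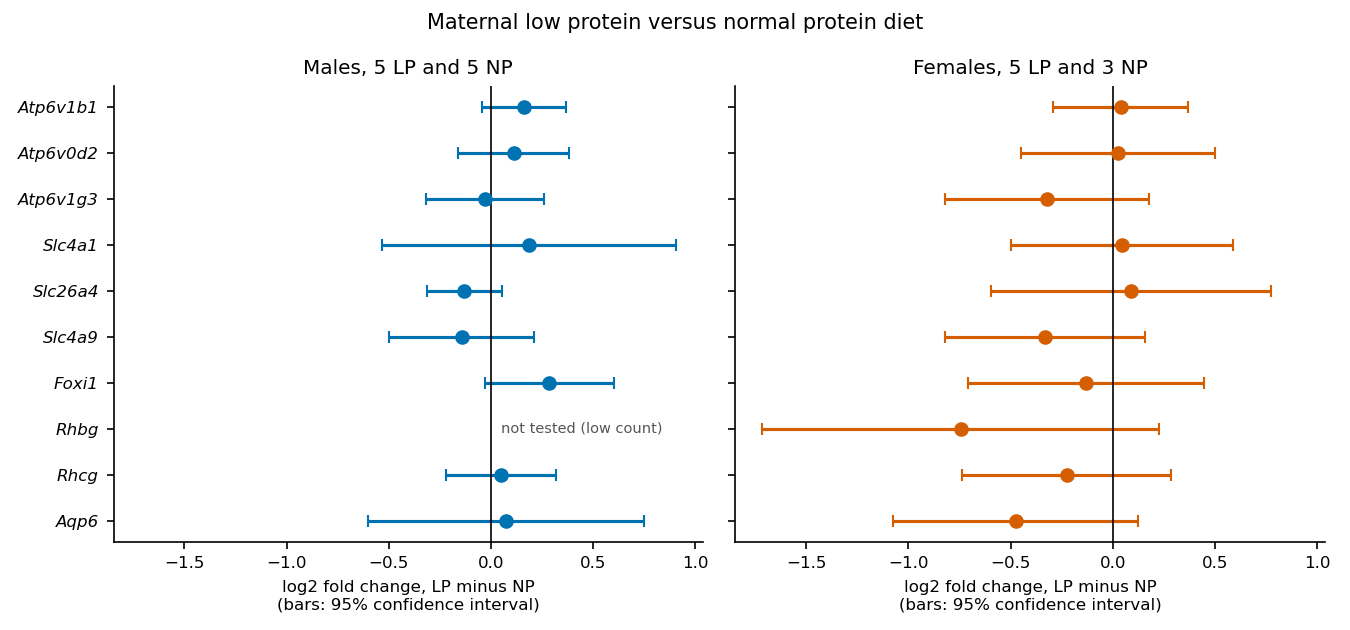
Points give the log2 fold change of each gene, LP minus NP, from edgeR, and bars its 95% confidence interval, in males on the left and females on the right. Every interval crosses 0, and the intervals in females are wider for each gene tested in both sexes other than *Slc4a1* and *Aqp6*.

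The diet effect of the intercalated cell genes was not shown to differ between the sexes. In a model of all 18 libraries, the difference in diet effect (males minus females, log2) ran from -0.21 for *Slc26a4* to 0.56 for *Aqp6* (SE 0.46), with a smallest unadjusted p of 0.157, for *Foxi1*. DEGs were 0 of the 9 genes tested, beside 0.0158% of 12665 genes. An unadjusted p under 0.05 was reached by 0 of the 9 and by 4.02% of all genes with edgeR. By limma-voom it was reached by 3 of the 9, beside 2919 of 12665 genes. DESeq2 and limma-voom also called 0. In the main test 8 of the 9 differences were positive, with a median of 0.21, and without the 3 libraries that stood apart 6 were positive, with a median of 0.031. Without those libraries, *Aqp6* went to 0.20 and *Slc26a4* to -0.38 (SE 0.16, unadjusted p = 0.0347 and adjusted p = 1.00 by edgeR). An unadjusted p under 0.05 was then reached by 1 of the 9, beside 437 of 12949 genes, and 0 were called. With one diet effect for both sexes, log2 fold changes ran from -0.23 for *Slc4a9* (SE 0.14) to 0.12 for *Slc4a1* (SE 0.23), and 0 of 9 were called by edgeR, DESeq2, or limma-voom, beside 0.0% of all genes. An unadjusted edgeR p under 0.05 was reached by 0 of the 9 and by 5.21% of all genes. These log2 fold changes ran, without the 3 libraries, from -0.11 for *Atp6v1g3* to 0.23 for *Foxi1*, with *Slc4a9* at -0.096 and *Slc4a1* at 0.17, and 0 were called.

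Other intercalated cell genes were not called between diets. In males, by edgeR's test over all genes, the smallest p of 15 belonged to *Oxgr1*, a receptor of type B cells (log2 fold change 0.39, adjusted p = 1.00 by edgeR). *Slc26a7*, a chloride-bicarbonate exchanger of type A cells, had a log2 fold change of 0.74 (edgeR adjusted p = 1.00), and *Avpr1a*, a vasopressin receptor, one of 0.48 (edgeR adjusted p = 1.00). An unadjusted p under 0.05 was reached by these 3 of the 15, beside the 3.84% of all genes given above. In females the smallest p-values were those of *Dmrt2*, *Hmx2*, and *Atp6v0a4*, with log2 fold changes of -0.52, -0.46, and 0.41 (edgeR adjusted p = 0.886, 0.886, and 0.886), and 0 of 15 had an unadjusted p under 0.05, beside 4.17% of all genes. Of 17 widely expressed pump genes, 0 were called in either sex, beside 0.0379% of all genes in males and 0.0% in females. Genes with the smallest p were *Atp6v1g1*, *Atp6v1d*, and *Atp6v0a1* in males (log2 fold changes 0.23, -0.14, and -0.09, each with an edgeR adjusted p of 1.00) and *Atp6v1b2*, *Atp6v1h*, and *Atp6v1a* in females (log2 fold changes 0.30, 0.24, and 0.31, each with an edgeR adjusted p of 0.886). With both sexes together, the smallest edgeR p-values were those of *Slc26a7*, *Avpr1a*, and *Atp6v1c2* (0.0326, 0.036, and 0.0463) and of *Atp6v1b2*, *Atp6v1a*, and *Atp6v1g1* (0.0491, 0.141, and 0.196), all with an adjusted p of at least 0.864. For the interaction they were those of *Dmrt2*, *Slc4a8*, and *Oxgr1* (0.0651, 0.108, and 0.181) and of *Atp6v1h*, *Atp6v1b2*, and *Atp6v1a* (0.025, 0.062, and 0.156), with adjusted p-values of at least 0.977 by edgeR.

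Between the sexes, most of the intercalated cell genes were lower in males. The B1 pump subunit gene *Atp6v1b1* had normalized counts of 979, 992, 1016, 1200.5 and 1211 in LP males and 878, 940.2, 976, 1011 and 1059 in NP males. In females it had 1565, 1599, 1886, 1996 and 2122 with LP and 1660.5, 1666 and 1961 with NP. All 10 males lay below all 8 females. With diet in the model, its log2 fold change (males minus females) was -0.84 (SE 0.08, 95% interval -1.01 to -0.68), which is 1.79-fold lower in males with an adjusted p of 1.34e-07 by edgeR's quasi-likelihood test with Benjamini-Hochberg adjustment. The exact permutation p, with sex labels exchanged within each diet, was 7.1e-05, the smallest that these 18 mice can give. The other pump subunits moved alike. *Atp6v0d2* was 317 ± 46.4 and 296 ± 28.3 in LP and NP males (mean ± SD, n = 5 each), and 516 ± 126 and 500.1 ± 17.5 in LP and NP females (n = 5 and 3). *Atp6v1g3* was 614 ± 77.0 and 633 ± 119.6 in LP and NP males and 965 ± 210.2 and 1191 ± 303 in LP and NP females. Their log2 fold changes were -0.76 (SE 0.11) and -0.80 (SE 0.13), with adjusted p-values of 2.5e-05 and 8.08e-05 by edgeR. In both genes the highest male lay above the lowest female. *Atp6v0d2* is also a gene of macrophages and osteoclasts, and the summed normalized counts of 8 macrophage and osteoclast-like markers ranged from 2764 to 3909 in males and from 2544 to 3738 in females. Of these markers 7 could be tested, 5 with a negative and 2 with a positive log2 fold change (median -0.51). DEGs lower in males were 2 of the 7, the complement genes *C1qa* (-0.81) and *C1qb* (-0.64), beside 11.1% of 12665 genes. *Acp5*, an osteoclast and macrophage phosphatase, was higher in males at 0.39 (edgeR adjusted p = 0.000433). The part of such cells in the *Atp6v0d2* counts was not tested.

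Of the 9 intercalated cell genes tested, 8 were DEGs lower in males and 0 were higher, beside 11.1% of 12665 genes lower and 7.06% higher. All 9 had an adjusted p under 0.05, which 19.5% of all genes had with a lower level in males. For *Slc26a4* this rested on the setting, as given below. Without the 3 libraries that stood apart, all 9 were DEGs, beside 11.5% of 12949 genes lower in males, with log2 fold changes from -1.05 for *Slc4a9* to -0.60 for *Slc26a4*. The median log2 fold change was -0.80 over the 9 genes and -0.05 over all genes. Males and females did not overlap for 3 of the genes, *Atp6v1b1*, *Slc4a9*, and *Rhcg*, while 2.0% of all genes were lower in males without overlap. In bulk kidney RNA, fewer intercalated cells, less RNA of these genes per cell, and more RNA from other segments cannot be told apart. Median log2 fold changes were -0.87 for distal convoluted and connecting tubule genes, -0.78 for podocyte genes, and -0.60 for thick ascending limb genes. For proximal tubule genes the median was -0.09, with 2 of 8 DEGs higher in males and 1 lower. The mean log2 level of the proximal tubule list was nonetheless higher in every male than in any female. It ran from 13.50 to 13.96 in males and from 12.15 to 13.02 in females. The paper reported a higher proximal tubule fraction in males than in females, and its part in these values was not tested.

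The widely expressed pump genes did not move with the restricted ones. *Atp6v1b2* had normalized counts of 7815 to 8613 in LP males and 7084 to 9237 in NP males, against 6005 to 6863 in LP females and 4686 to 5757 in NP females. The log2 fold change stood at 0.44 (SE 0.07, edgeR adjusted p = 9.34e-05), so the B2 gene was higher in males where the B1 gene was lower. *Atp6v0d1* was likewise higher in males, at 0.35 (SE 0.06, edgeR adjusted p = 0.000322), whereas *Atp6v1g1* had a log2 fold change of 0.03 (SE 0.11, edgeR adjusted p = 0.88). Of 17 such genes, 13 had a positive log2 fold change, 9 had an adjusted p under 0.05, and 0 reached a 1.5-fold change, with a median of 0.30. By edgeR, an unadjusted p under 0.05 was reached by 10 of the 17, beside 5908 of 12665 genes. Besides *Atp6v1b2* and *Atp6v0d1*, the smallest p-values belonged to *Atp6v0a2* (0.51), *Atp6v1c1* (0.35), *Atp6v1d* (0.32), and *Atp6v0c* (0.32), all of them log2 fold changes with higher levels in males.

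**Figure D3:**
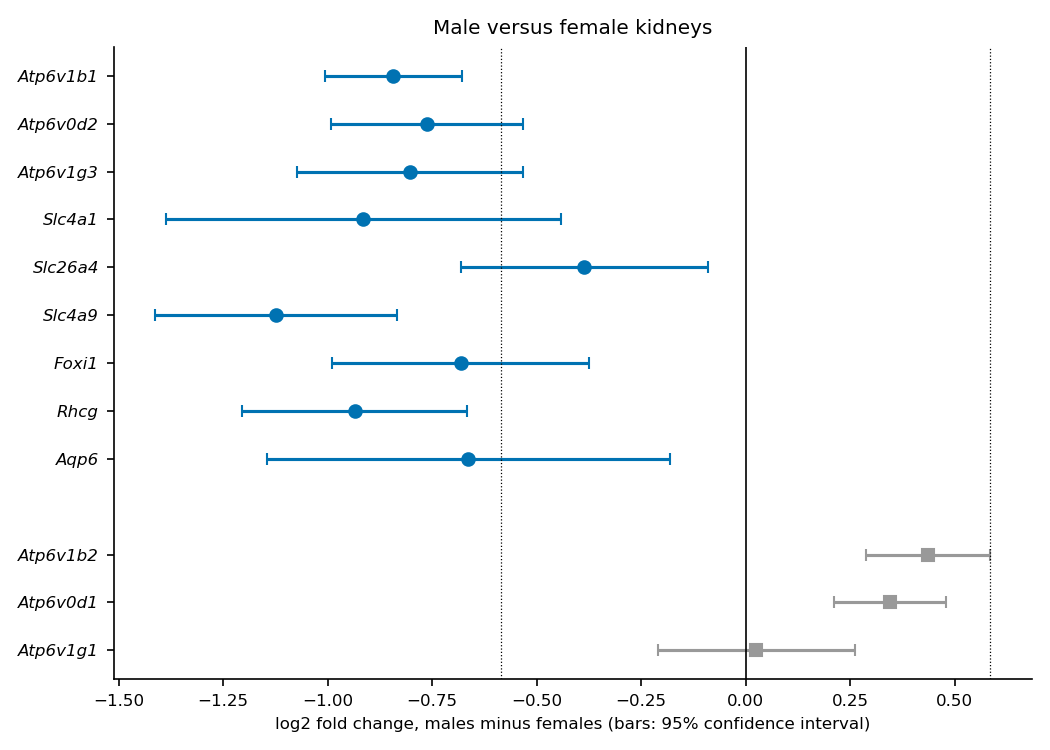
Points give log2 fold changes of males minus females from edgeR with diet in the model, with 95% confidence intervals as bars, for the 9 intercalated cell genes tested (circles) and 3 widely expressed subunit genes (squares); dotted lines mark a 1.5-fold change. All circles lie below 0, and *Slc26a4* is the one between the dotted lines, at -0.39.

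Among the bicarbonate exchangers, *Slc4a9* differed most between the sexes and *Slc26a4* least. *Slc4a9* had normalized counts of 470.0, 488, 533, 548 and 754 in LP males and 443, 613, 619, 657 and 776 in NP males. Every male was below every female, whose lowest count was 800.4 in LP female 2, and the log2 fold change was -1.12 (SE 0.14, 2.18-fold lower in males, edgeR adjusted p = 4.25e-06, exact permutation p = 7.1e-05). *Slc26a4* had 971 to 1144 in LP males and 1084 to 1326 in NP males, and 661, 1274, 1541, 1641 and 2034 in LP females and 1129, 1365 and 1488 in NP females. LP female 2 was below every male. Its log2 fold change was -0.39 (SE 0.14, interval -0.68 to -0.09, edgeR adjusted p = 0.0369), under the 1.5-fold threshold, and the exact permutation p was 0.0713. Without the 3 libraries that stood apart, it became -0.60 (SE 0.09, edgeR adjusted p = 9.08e-05) and *Slc26a4* was a DEG. The edgeR adjusted p of *Slc26a4* was above 0.05 with no filter on low counts (0.107), with filterByExpr (0.0536), with the replicate block (0.0501), and without any 1 of LP males 3, 4, and 5, LP females 3, 4, and 5, and NP female 1 (0.0506 to 0.0738). The intervals of *Slc4a9* and *Slc26a4* did not overlap, and the difference between the genes was not tested.

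The type A exchanger *Slc4a1* was lower in males with a wide spread. Against the male counts given above, normalized counts were 514, 587, 609, 739 and 772 in LP females and 397, 603 and 854 in NP females. The groups overlapped, with 2 LP males and 2 NP males above the lowest female. The log2 fold change was -0.91 (SE 0.23, edgeR adjusted p = 0.00369, exact permutation p = 0.00191), and -0.67 (edgeR adjusted p = 0.0423) without the 3 libraries that stood apart. *Slc4a1* also encodes band 3 of red blood cells, and counts per gene do not separate the kidney form, which starts inside the gene, from that of red cells. The erythroid gene *Alas2* had normalized counts of 3.80 to 34.8 in LP males, 9.07 to 23.4 in NP males, 9.66 to 78.0 in LP females, and 29.6 to 32.0 in NP females, and the red cell ammonia transporter gene *Rhag* had 0 to 4 raw counts in every library. *Hba-a1*, a globin gene, ranged from 164 to 1183 in males and from 284 to 2567 in females. The females with the next highest *Hba-a1* after NP female 1, LP female 2 and NP female 3 (1707 and 1576), had 739 and 854 of *Slc4a1*, while NP female 1 (2567) had 603 and LP female 1 (408) had 772. In males, the highest *Hba-a1*, 1183 in LP male 4, went with 586 of *Slc4a1*, and the lowest, 164 in NP male 3, with 153. Other males varied. NP male 2 (925 of *Hba-a1*) had 429 of *Slc4a1*, while LP male 1 (808) had 201 and NP male 1 (711) had 291. Of 10 erythroid and blood genes, 2 could be tested, both with a negative log2 fold change, and 0 were called between the sexes. They were *Hba-a1* at -0.84 (SE 0.47, edgeR adjusted p = 0.17) and *Tmcc2* at -0.15. The part of red cell RNA in the *Slc4a1* counts was not tested.

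*Foxi1* and the ammonia transporters followed the same direction. *Foxi1* had normalized counts of 418, 626, 763, 801 and 846 in LP females and 507, 809 and 926 in NP females, against 401 to 594 in LP males and 338 to 467 in NP males. LP female 2 and NP female 2, at 418 and 507, lay within the range of the males. The log2 fold change of *Foxi1* was -0.68 (SE 0.15, edgeR adjusted p = 0.00128, exact permutation p = 0.00191). *Rhcg* had 936, 1007, 1065, 1187 and 1229 in LP males and 844, 971, 996, 1161 and 1315 in NP males. It had 1364, 1672, 1974, 2123 and 2234 in LP females and 1447, 2259.7 and 2793 in NP females, above all males. Its log2 fold change was -0.94 (SE 0.13, 1.91-fold lower in males, edgeR adjusted p = 1.59e-05, exact permutation p = 7.1e-05). *Rhbg* was counted at 8.65 to 22.8 in LP males and 9.33, 12.3, 12.9, 15.9 and 46.4 in NP males, and its female values are given above. NP male 5, at 46.4, was the male that reached the females. With no filter on low counts it was tested and had a log2 fold change of -1.38 (SE 0.32, edgeR adjusted p = 0.00268), and its exact permutation p was 0.00113. The part of cells other than intercalated cells in the *Rhbg* and *Rhcg* counts was not tested.

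*Aqp6* was the DEG that lost its call when certain single libraries were left out. It had normalized counts of 446, 570.1, 637, 1201 and 1245 in LP males and 465, 559.5, 849.6, 975 and 1085 in NP males, against 793, 979, 1031, 1154 and 1458 in LP females and 837, 1755 and 1866 in NP females. The highest males, LP males 4 and 5, lay above 5 of the 8 females. Its log2 fold change was -0.66 (SE 0.23, edgeR adjusted p = 0.0288, exact permutation p = 0.0202). The adjusted p by edgeR rose to 0.0505 without LP female 4, to 0.0689 without NP female 1, and to 0.0723 without NP female 3, each above the threshold of 0.05.

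Within each diet, 5 of the 9 genes tested passed the test between the sexes in LP mice and 6 in NP mice. In LP mice, adjusted p-values under 0.05 were reached by *Atp6v1b1* (log2 fold change -0.78, edgeR adjusted p = 0.000828), *Slc4a9* (-1.03, 0.00111), *Rhcg* (-0.81, 0.00215), *Atp6v1g3* (-0.67, 0.0115), and *Atp6v0d2* (-0.72, 0.0142), beside 8.01% of 13228 genes lower in males. In NP mice the same 5 genes and *Foxi1* (-0.91, edgeR adjusted p = 0.0188) passed, beside 6.89% of 12952 genes. *Slc4a1* and *Aqp6* had edgeR adjusted p-values of 0.0569 and 0.33 in LP mice and 0.0755 and 0.0725 in NP mice. Those of *Slc26a4* were 0.165 in LP mice and 0.205 in NP mice, and that of *Foxi1* in LP mice was 0.0816. When the 3 libraries that stood apart were left out, *Slc26a4* (-0.76, edgeR adjusted p = 0.000915) and *Foxi1* (-0.71, edgeR adjusted p = 0.00576) passed in LP mice too, which made 7 of 9, beside 9.8% of 13394 genes. In NP mice, where 2 females were left, 6 of 9 passed beside 7.09% of 13229 genes, and *Slc26a4* had an edgeR adjusted p of 0.0981. This alternative was chosen after the data were seen. The sexes did not overlap for 3 of the 9 genes in LP mice (*Atp6v1b1*, *Slc4a9*, and *Rhcg*), beside 5.07% of 13228 genes lower in males. In NP mice they did not overlap for 6 (the same 3 with *Atp6v0d2*, *Atp6v1g3*, and *Foxi1*), beside 8.69% of 12952 genes. *Rhbg*, too low in counts to be among the genes tested, did not overlap in LP mice either. Its highest LP male had 22.8 and its lowest LP female 25.4.

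Other genes of intercalated cells and of neighbouring segments moved in the same direction. Over all 12665 genes tested, 11.1% were DEGs lower in males and 7.06% were DEGs higher. Of 15 further intercalated cell genes, all had a negative log2 fold change, 8 were DEGs lower in males, and 0 were higher, with a median of -0.68. Those with the smallest p were *Atp6v1c2*, a pump subunit (-0.95, edgeR adjusted p = 2.62e-06), *Slc4a8*, a bicarbonate exchanger of type B cells (-0.93, 4.82e-05), *Hepacam2* (-0.68, 0.000132), *Oxgr1* (-0.79, 0.000167), *Insrr*, an alkali-sensing receptor (-0.72, 0.000432), and *Dmrt2*, a transcription factor of type A cells (-0.99, 0.00388). Principal cell genes, which mark the other cell of the collecting duct, were lower in males for 5 of 8 tested and higher for 0, with a median of -0.65. The water channel gene *Aqp2* had a log2 fold change of -0.17 (SE 0.24, edgeR adjusted p = 0.619), and the sodium channel gene *Scnn1b* one of -0.79 (SE 0.11, edgeR adjusted p = 1.87e-05). Genes of the distal convoluted and connecting tubule were lower for 5 of 6, with a median of -0.87. The mean log2 level of the principal cell list ran from 8.11 to 9.03 in males and from 8.72 to 9.28 in females. With that level as a covariate, 4 of the 9 intercalated cell genes were DEGs, beside 4.35% of 12665 genes lower in males. The log2 fold changes of *Atp6v1b1*, *Atp6v0d2*, *Slc4a9*, and *Rhcg* were then -0.75, -0.71, -1.30, and -0.75, whereas those of *Slc4a1* and *Aqp6* were -0.22 and -0.028 (edgeR adjusted p = 0.617 and 0.959). *Atp6v1g3* had -0.55 (edgeR adjusted p = 0.0484), under the 1.5-fold threshold, *Foxi1* -0.41 (edgeR adjusted p = 0.189), and *Slc26a4* -0.52 (edgeR adjusted p = 0.11).

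Within groups, the 10 genes did not vary as one. In LP males, *Slc26a4* varied least of the 10, with a coefficient of variation of 6.60%, and in NP males *Atp6v1b1* did, at 7.08%, with *Slc26a4* at 8.90%. In LP males *Slc4a1* and *Aqp6* varied most, at 47.4% and 45.7%. The number of *Slc4a1* counts per *Slc26a4* count, an index of the type A against the type B exchanger, ran from 0.189 to 0.559 in LP males and from 0.141 to 0.392 in NP males. It ran from 0.299 to 1.12 in LP females and from 0.291 to 0.756 in NP females, so the groups overlapped, and the highest value was that of LP female 2. After group means were removed, the deviations of *Slc4a1* and *Aqp6* had a Pearson r of 0.80 over the 18 libraries. Those of *Foxi1* and *Aqp6* had an r of 0.86, *Atp6v1g3* and *Rhcg* 0.87, *Rhbg* and *Rhcg* 0.82, and *Atp6v0d2* and *Slc26a4* 0.81. *Slc4a1* and *Slc26a4* had an r of -0.24, and *Slc4a9* had an r of at most 0.42 with any other gene of the list. Without the 3 libraries that stood apart (15 libraries, an alternative chosen after the data were seen), *Slc4a1* and *Aqp6* had an r of 0.90, *Foxi1* and *Aqp6* 0.94, *Atp6v1g3* and *Rhcg* 0.92, *Rhbg* and *Rhcg* 0.74, and *Atp6v0d2* and *Slc26a4* 0.62. *Slc4a1* and *Slc26a4* then had an r of 0.11, and *Slc4a9* reached 0.60, with *Atp6v1b1*. These values share their libraries, depth, and tissue piece and are descriptions.

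**Figure D4:**
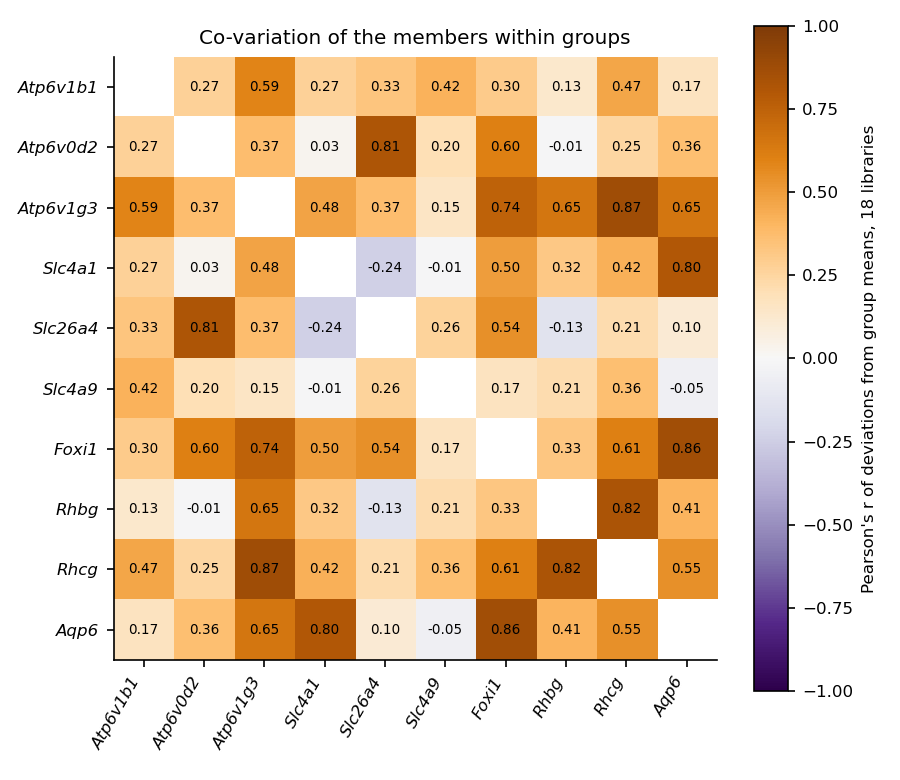
Each cell gives Pearson's r between 2 genes, computed from log2 CPM after the mean of each of the 4 groups was removed, over 18 libraries; orange is positive and purple negative. *Aqp6* goes with *Foxi1* (0.86) and *Slc4a1* (0.80), *Slc26a4* with *Atp6v0d2* (0.81), and the row of *Slc4a9* stays at or below 0.42.

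The genes outside the list whose deviations were most like the mean deviation of the 10 genes were ranked among 12655 genes. They were *Scnn1b*, a subunit of the epithelial sodium channel of principal cells (r = 0.90), *Ybx3*, a nucleic acid binding protein (0.85), *Kcnq1*, a potassium channel (0.83), *Gpatch4* (0.83), and *Gm74136* (0.79). In the 15 libraries that did not stand apart, r was 0.89 for *Scnn1b*, which ranked 22, and 0.80 to 0.84 for the other 4, which ranked 55 to 147. The first 5 were then *Blnk*, *Tspan8*, *Zfyve27*, *Esrrb*, and *Hepacam2* (r = 0.92 to 0.94). *Scnn1b* had normalized counts of 607 to 725 in LP males, 476 to 685 in NP males, 762 to 1156 in LP females, and 821 to 1385 in NP females.

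In males, part of the spread of *Aqp6*, *Foxi1*, *Slc4a1*, and *Atp6v1g3* moved with genes of the inner medulla and with principal cell genes. A list of 7 inner medullary genes was averaged on the log2 scale in each library, and its level ran from 8.74 to 10.3 in the 10 males and from 9.49 to 10.5 in the 8 females. In males, *Aqp6* rose with it (Pearson r = 0.94, permutation p = 0.00016, adjusted p = 0.0032 over 20 relations; Spearman rho = 0.93, permutation p = 0.00028, adjusted p = 0.0028). Without NP males 3 and 5, the mice farthest from the median, r was 0.96. *Foxi1* did so as well (r = 0.79, permutation p = 0.00554, adjusted p = 0.0369; rho = 0.93, permutation p = 0.0002, adjusted p = 0.0028), with an r of 0.84 without those mice. For *Slc4a1* (r = 0.85, permutation p = 0.00264, adjusted p = 0.0264) the rank correlation did not pass (rho = 0.79, permutation p = 0.00934, adjusted p = 0.0623), and r was 0.82 without those mice. *Atp6v1g3* (r = 0.75, permutation p = 0.0079, adjusted p = 0.0395; rho = 0.77, permutation p = 0.0135, adjusted p = 0.0674) rested on them in part, with an r of 0.54 without them. The type B genes *Slc26a4* and *Slc4a9* had no adjusted p under 0.05. *Slc26a4* had an r of -0.06 (permutation p = 0.86, adjusted p = 0.906; rho = -0.16, permutation p = 0.654, adjusted p = 0.836) and *Slc4a9* one of -0.61 (permutation p = 0.0658, adjusted p = 0.219; rho = -0.66, permutation p = 0.045, adjusted p = 0.15), with r at -0.10 and -0.52 without those mice.

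In males, the same 4 genes also had a high r with the principal cell list. Over the 10 males it was 0.89 for *Aqp6*, 0.83 for *Foxi1*, 0.76 for *Atp6v1g3*, and 0.74 for *Slc4a1*, given as descriptions. After the mean of each diet was removed, an alternative chosen after the data were seen, r with the inner medulla list was 0.95 for *Foxi1* (exact permutation p = 0.000139 within diets, adjusted p = 0.00278 over 20 relations). It was 0.94 for *Aqp6* (exact permutation p = 0.000278, adjusted p = 0.00278) and 0.86 for *Slc4a1* (exact permutation p = 0.00313, adjusted p = 0.0208). *Atp6v1g3* did not pass, with 0.75 (exact permutation p = 0.0224, adjusted p = 0.112). With the principal cell list, the values within diets were 0.93 for *Foxi1* (exact permutation p = 0.000694, adjusted p = 0.0139) and 0.89 for *Aqp6* (exact permutation p = 0.00417, adjusted p = 0.0417). *Atp6v1g3*, at 0.77 (exact permutation p = 0.0117, adjusted p = 0.0778), and *Slc4a1*, at 0.74 (exact permutation p = 0.0208, adjusted p = 0.104), did not pass.

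In females, none of the 10 genes had an adjusted p under 0.05 against the inner medulla list. *Slc4a1* had the strongest relation, in the opposite direction (r = -0.75, exact permutation p = 0.0157, adjusted p = 0.0629; rho = -0.81, exact permutation p = 0.0218, adjusted p = 0.0871), and an r of -0.68 without LP female 1 and NP female 3. *Aqp6* had an r of 0.02 (exact permutation p = 0.985, adjusted p = 0.985; rho = 0.17, exact permutation p = 0.703, adjusted p = 0.836). Without LP female 1 and NP female 3, r was 0.41 for *Aqp6*. In the genes other than *Slc4a1* it then ran from 0.32 for *Atp6v0d2* to 0.63 for *Atp6v1g3*, values that were not tested. The list was low in the libraries that stood apart, at 9.49 to 10.2, against 10.3 to 10.5 in the other 5 females. Without those libraries 5 females remain, too few for a correlation. With the mean of each diet removed, *Slc4a1* in the 8 females had an r of -0.74 (exact permutation p = 0.0417, adjusted p = 0.167). Against the principal cell list, with diet means removed, r in females ran from -0.62 for *Slc26a4* to 0.48 for *Slc4a1*. Their exact permutation p-values were 0.247 and 0.111 (adjusted p = 0.387 and 0.317). *Foxi1* and *Aqp6* stood at -0.59 and -0.38 (adjusted permutation p = 0.387 for both). The region of the kidney that each piece held was not given, and its part in the spread was not tested.

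**Figure D5:**
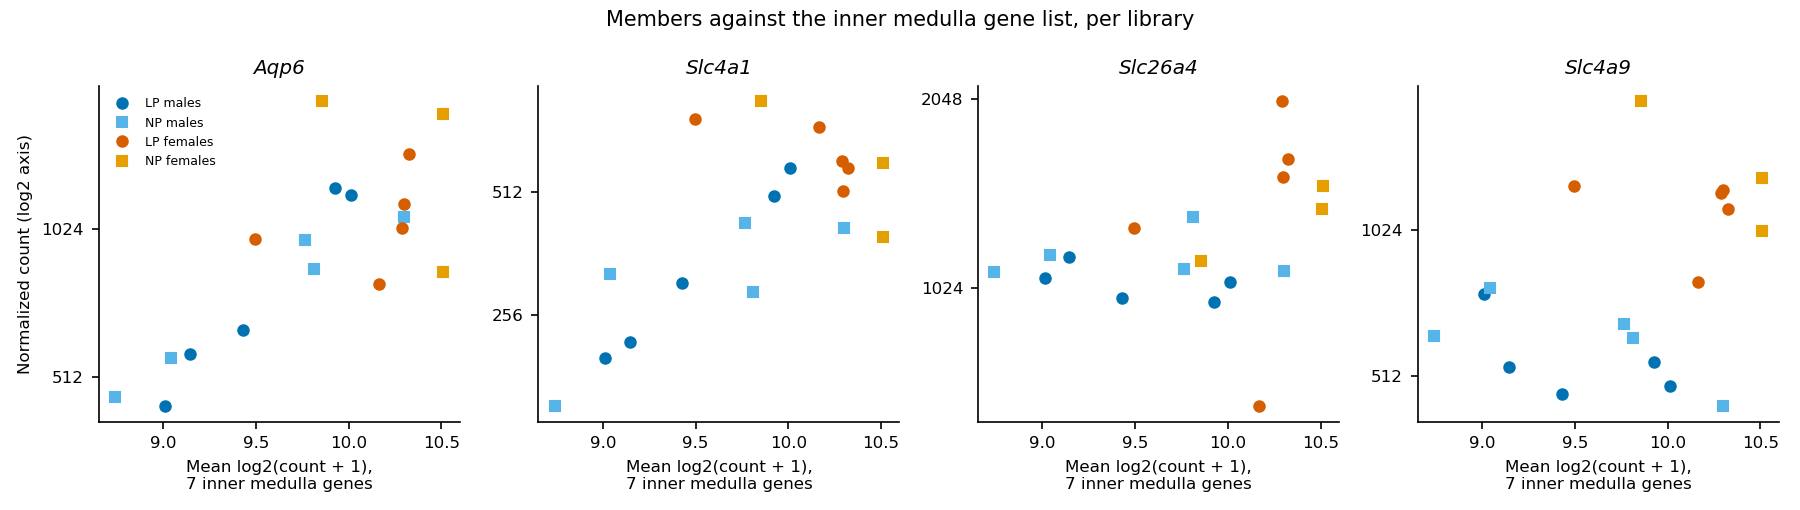
Each panel plots the normalized count of 1 gene (log2 axis) against the mean log2(normalized count + 1) of 7 inner medulla genes, with 1 point per library coloured by group. In males (blue), *Aqp6* and *Slc4a1* rise from left to right, *Slc26a4* is level, and *Slc4a9* tends to fall. Over all 8 female points (orange), *Aqp6* and *Slc4a1* show no such rise. Without LP female 1 and NP female 3, r for *Aqp6* in females is 0.41.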

How the data were processed

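Raw counts of reads per gene were deposited by the authors for 18 kidney libraries, made from poly(A)-selected, non-directional RNA. Per the study's methods and the submitters' processing notes, reads were quality-filtered, trimmed, aligned to GRCm39 (GENCODE vM36) with STAR, and counted. The unstranded count column was used. The 28.6% to 36.1% of reads not counted on 1 gene were left out of library sizes and tests. Gene positions and exon lengths came from GENCODE vM39, which held 78168 of the 78239 genes.

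Counts were tested with edgeR 4.0.16 in R 4.3.3 (quasi-likelihood test, TMM normalization, Benjamini-Hochberg adjustment over all genes tested) after genes below 10 counts in any library of the comparison were dropped. For normalized counts, each count was divided by the DESeq2 size factor of its library. An exact two-sided permutation test of single genes used log2(normalized count + 1) in SciPy. LP and NP were compared within each sex, as in the study, then over both sexes with sex as a covariate and as a diet by sex interaction. Males and females were compared with diet as a covariate. Fold changes from edgeR are shrunken slightly by its prior count.

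Named genes were the 10 members, their widely expressed paralogs, erythroid and collecting duct reference genes, the 5 genes most alike, and, in 2 lists (other intercalated cell genes and widely expressed pump genes), up to 6 genes with an adjusted p under 0.05 or else the 3 with the smallest p. Of 148 list genes, 147 were found. The members and lists were chosen with earlier results of these data known. Alternatives were no filter, filterByExpr, DESeq2's size factors, DESeq2 1.42.0, limma-voom (limma 3.58.1) with quality weights, a replicate block, leaving out each library, leaving out the 3 libraries that stood apart, a principal cell covariate, the adjusted p alone, and all groups in 1 model. After the data were seen, the within-diet and within-group values without those 3 libraries and the correlations with diet means removed were added. The scripts were tested on simulated counts.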

Additional observations from a re-analysis of the deposited data

Results flagged for a closer look

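In 30 groups of 5 mice (the 10 genes in LP males, NP males, and LP females), 3 values lay far from the others of their group by Dixon's gap test, whose 95% critical value is 0.710 for 5 values. Chance gives about 1 in 20 such groups. *Slc4a9* in LP male 1 had a normalized count of 754.496, with the next highest at 547.694. *Slc4a9* in LP female 2, one of the libraries that stood apart, had 800.38, with the next lowest at 1129.49. *Rhbg* in NP male 5 had 46.3534, with the next highest at 15.9153. That library also had the highest *Atp6v1g3* and *Rhcg* of the males.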

How the results depend on the processing

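In each diet comparison, and in the interaction, 0 intercalated cell genes were called under every alternative and with any 1 library left out. Between the sexes, 8 were called in the main test and 4 with the principal cell level as a covariate. The count was 7 to 8 with 1 library left out, 9 without the 3 libraries that stood apart, 9 of 10 tested with no filter or filterByExpr, and 9 by the adjusted p alone. Within diets it was 5 in LP and 6 in NP mice by the adjusted p alone, and 7 and 6 without those 3 libraries.

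Several diet estimates changed sign. In males, *Atp6v1g3* went from -0.03 to 0.11 by limma-voom, and *Aqp6* from 0.07 to -0.028 with the principal cell covariate. In females, limma-voom gave -0.060 for *Atp6v1b1* and -0.020 for *Slc4a1*. The principal cell covariate gave -0.53 for *Atp6v0d2* and -0.66 for *Slc26a4*. Without the 3 libraries, log2 fold changes were -0.011 for *Atp6v1b1*, 0.011 for *Slc4a9* (-0.33 with all females), 0.14 for *Foxi1*, and 0.028 for *Rhcg* (-0.23 with all females). With 1 library left out, they ran in males from -0.10 to 0.090 for *Atp6v1g3*, -0.063 to 0.33 for *Slc4a1*, -0.023 to 0.14 for *Rhcg*, and -0.12 to 0.23 for *Aqp6*. In females they ran from -0.019 to 0.14 for *Atp6v1b1*, -0.052 to 0.15 for *Atp6v0d2*, -0.18 to 0.36 for *Slc4a1*, -0.066 to 0.28 for *Slc26a4*, -0.33 to 0.067 for *Foxi1*, and -0.43 to 0.0042 for *Rhcg*. The cause was not tested.

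The labels do not say whether replicate numbers pair the mice. Same-numbered libraries had correlations of -0.27 to 0.30 between LP and NP males and -0.57 to -0.37 between LP and NP females. Between males and females they were -0.24 to -0.0026 with LP and -0.25 to 0.46 with NP. Pairing cannot be told from these values, and those with females include the libraries that stood apart. With the replicate block, 0 genes were called between diets and 8 between the sexes, and in females the log2 fold changes of *Atp6v1b1*, *Atp6v0d2*, and *Slc26a4* changed sign, to -0.024, -0.21, and -0.29.

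With 3 NP females, a 1.5-fold diet difference lies inside the 95% interval of every intercalated cell gene in females other than *Atp6v1b1* and *Atp6v0d2*.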

Other observations

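Other acid-base genes of the kidney did not share one direction between the sexes. Of 19 tested, 2 were DEGs higher in males and 7 were DEGs lower, beside 7.06% of all genes higher and 11.1% lower. *Car4*, a membrane carbonic anhydrase, had a log2 fold change of 1.42 (SE 0.15, edgeR adjusted p = 9.66e-07), higher in males. *Car2*, the cytosolic carbonic anhydrase that intercalated cells also use, had one of -1.03 (SE 0.13, edgeR adjusted p = 9.47e-06). Both genes were named after their values were seen.

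Other lists held male-female differences too. Over all genes tested, 11.1% were DEGs lower in males and 7.06% were DEGs higher. Genes of the thick ascending limb were lower in males for 3 of 6 tested and podocyte genes for 4 of 5, with 0 higher in either list. Proximal tubule genes were higher for 2 and lower for 1 of 8, and inner medulla genes lower for 2 of 7. Macrophage and osteoclast-like genes were lower for 2 of 7, glucocorticoid response genes for 3 of 8, and interferon response genes for 0 of 7. The fat list had 0 genes that reached the count minimum in every library, so it was not tested. Between diets, 0 genes of any of the 15 lists were DEGs in either sex, beside 0.0379% of all genes in males and 0.0% in females.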
